A study of Mus musculus with 36 samples.

Results

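The genes described are 9, most of them known from fast-spiking neurons and large axons: Scn4b, Nefh, Nefm, Nefl, Vamp1, Syt2, Kcng4, Mybpc1 and Cpne9. They are 9 of the 37315 genes of the count table, matched by symbol and chosen by their measured level in the medial entorhinal cortex (MEC), which was highest in fear, intermediate in context and lowest in home cage. Their MEC values are therefore given as a description with no test, and the 9 genes were tested only in the other regions. Lists of related genes and markers were also tested in MEC, and these lists were chosen with earlier results of these data known. All 9 passed the filter on low counts in every region.

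The libraries were polyA RNA of wild-type BL-6 mice from MEC, the lateral entorhinal cortex (LEC) and the hippocampal fields CA1 and CA3, which receive entorhinal input. Each region had 3 libraries of foot-shocked mice (fear), 3 of mice that were put into a context and 3 of home cage mice, 36 libraries in 12 groups. All mice were housed singly and were handled for 3 minutes a day over 5 days, and tissue was taken 90 minutes after behaviour. No transgene or mutation was involved, and the labels give neither age nor sex and do not tie a library to a mouse, so a p-value here reflects only library-to-library spread, which may be technical.

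Fast-firing neurons keep their action potentials short and recover quickly between them. Sodium channel beta subunits shape how the channel reopens, Kv3 and Kv1 potassium channels end the spike and hold the threshold, and synaptotagmin and synaptobrevin time the release of transmitter. Neurofilaments fill and widen large myelinated axons. In cortex many of these genes are abundant in parvalbumin interneurons, and several are also found in projection neurons.

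Library totals ran from 21871412 to 68974340 counts (median 28098008). On the first principal component of each region, LEC home cage 3, CA1 home cage 2, CA3 context 2 and CA3 home cage 2 lay farthest from the other libraries, and MEC home cage 3, the deepest library, lay nearer to MEC context 3 than to the other home cage libraries. Results that change without these libraries are given as such. None of the markers in the 18 cell type lists was at 0 in any group.

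Upstream sequence is shown for Scn4b, as the gene with the largest MEC difference, and for Syt2, as the only gene with a motif match. RefSeq promoter windows (GRCm38.p6) matched 6 of the 9 genes, in 7 windows of 250 bases before an annotated start. Both strands were searched for the cAMP response element TGACGTCA, for TGANTCA of AP-1 factors, for GCGNGGGCG of Egr factors, for AAGGTCA of orphan nuclear receptors and for the TATA box TATAAA. Capitals mark a match, and sequences run 5′ to 3′ on the strand of the gene.
Scn4b, chr9:45138374-45138623, plus strand: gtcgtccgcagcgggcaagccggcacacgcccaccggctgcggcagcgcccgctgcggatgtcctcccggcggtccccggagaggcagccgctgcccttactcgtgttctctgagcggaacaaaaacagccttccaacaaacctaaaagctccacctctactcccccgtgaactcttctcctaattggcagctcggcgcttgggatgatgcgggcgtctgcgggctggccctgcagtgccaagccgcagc
Syt2, chr1:134646362-134646611, plus strand: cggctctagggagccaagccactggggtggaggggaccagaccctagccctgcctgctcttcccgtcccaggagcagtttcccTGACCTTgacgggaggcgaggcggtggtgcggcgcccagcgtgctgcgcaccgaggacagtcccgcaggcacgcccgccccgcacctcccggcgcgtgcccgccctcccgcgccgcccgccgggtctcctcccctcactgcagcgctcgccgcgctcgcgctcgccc
Syt2, chr1:134709050-134709299, plus strand: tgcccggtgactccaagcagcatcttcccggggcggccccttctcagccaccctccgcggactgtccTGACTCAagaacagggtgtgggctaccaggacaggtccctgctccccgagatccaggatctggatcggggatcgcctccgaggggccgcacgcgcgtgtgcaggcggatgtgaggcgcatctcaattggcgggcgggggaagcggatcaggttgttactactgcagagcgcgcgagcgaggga
The upstream Syt2 window held AAGGTCA on the opposite strand, 167 bases before the start, and the second Syt2 window held TGANTCA, 183 bases before its start. AAGGTCA occurred in 4.08% and TGANTCA in 6.75% of all 32851 windows of this length, TGACGTCA in 1.55%, GCGNGGGCG in 4.70% and TATAAA in 12.4%. The other 5 windows, of Scn4b, Vamp1, Kcng4, Mybpc1 and Cpne9, held none of the motifs. The RefSeq start of Scn4b lies downstream of its GENCODE start, so most of its window is inside the gene coordinates given here, and the second Syt2 window is inside the Syt2 gene.

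Scn4b encodes a beta subunit of voltage-gated sodium channels that is tied to resurgent sodium current (ENSMUSG00000046480, GRCm38 chr9:45138395-45154152, plus strand, 5 exon blocks). In MEC it stood at 31.8, 47.7 and 55.2 CPM (counts scaled to the library total) in fear, at 18.5, 17.0 and 26.6 CPM in context and at 6.5, 8.1 and 7.4 CPM in home cage. The 3 groups did not overlap. Its log2 difference was 2.65 ± 0.21 (SE) for fear against home cage, 1.54 ± 0.21 for context against home cage and 1.12 ± 0.20 for fear against context. In these bulk samples, more cells of a type and more RNA per cell cannot be told apart.

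The neurofilament genes encode the heavy (Nefh), medium (Nefm) and light (Nefl) subunits of the axonal neurofilament. Nefh (ENSMUSG00000020396, chr11:4938754-4948064, minus strand) had 61.1, 78.0 and 91.1 CPM in MEC fear, 52.9, 48.8 and 63.0 CPM in context and 30.7, 31.5 and 38.2 CPM in home cage. Nefm (ENSMUSG00000022054, chr14:68082590-68124846, minus strand) had 103.3, 122.2 and 135.9 CPM in fear, 111.9, 83.1 and 109.3 CPM in context and 40.5, 55.3 and 60.6 CPM in home cage. Nefl (ENSMUSG00000022055, chr14:68083863-68089095, plus strand) had 231.7, 281.3 and 257.1 CPM in fear, 240.3, 223.3 and 251.2 CPM in context and 177.8, 179.3 and 187.8 CPM in home cage. All 3 neurofilament genes were above home cage in every fear and every context library, whereas fear and context overlapped. The log2 differences of fear against home cage were 1.23 ± 0.15 for Nefh, 1.25 ± 0.15 for Nefm and 0.54 ± 0.09 for Nefl. Nefm and Nefl share 1108 exonic bases on opposite strands, and no source used here gives the strand setting of the counting. Reads there may therefore count for either gene or for neither, which also limits the ratio of Nefl over Nefm.

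The subunit genes differed in size of change, so their ratio differed between the groups. Per exonic kilobase, Nefl over Nefm was 3.67 ± 0.38 in MEC fear, 4.07 ± 0.48 in context and 6.12 ± 1.21 in home cage (SD, n = 3). Nefl over Nefh was 4.03 ± 0.61 in fear, 5.16 ± 0.39 in context and 6.46 ± 0.56 in home cage. In the 9 groups of the other regions the mean of Nefl over Nefm ran from 5.30 to 6.83 and that of Nefl over Nefh from 7.62 to 11.7.

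Vamp1 and Syt2 act at the presynaptic terminal, Vamp1 as a vesicle SNARE protein and Syt2 as a fast calcium sensor of release. Vamp1 (ENSMUSG00000030337, chr6:125215551-125245964, plus strand) had 123.2, 153.1 and 165.2 CPM in MEC fear, 99.0, 93.2 and 116.1 CPM in context and 71.6, 74.4 and 71.9 CPM in home cage. Syt2 (ENSMUSG00000026452, chr1:134646677-134762593, plus strand) had 70.0, 70.1 and 92.8 CPM in fear, 47.8, 43.3 and 65.6 CPM in context and 19.6, 20.4 and 22.5 CPM in home cage. Neither gene's groups overlapped. Fear against home cage gave 1.06 ± 0.12 for Vamp1 and 1.93 ± 0.16 for Syt2, and context against home cage gave 0.54 ± 0.12 for Vamp1 and 1.36 ± 0.15 for Syt2 (log2 ± SE).

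Kcng4, Mybpc1 and Cpne9 belong to other gene families. Kcng4 encodes a silent potassium channel subunit that assembles with Kv2 subunits (ENSMUSG00000045246, chr8:119623854-119635680, minus strand). It had 2.7, 6.4 and 6.0 CPM in MEC fear, 2.4, 2.9 and 2.7 CPM in context and 1.1, 1.5 and 1.6 CPM in home cage. Mybpc1, a myosin-binding protein known from slow skeletal muscle (ENSMUSG00000020061, chr10:88518279-88605152, minus strand), had 26.2, 34.2 and 37.0 CPM in fear, 19.4, 15.2 and 24.9 CPM in context and 8.9, 7.7 and 6.0 CPM in home cage. Cpne9, of the calcium-dependent phospholipid-binding copines (ENSMUSG00000030270, chr6:113282307-113305627, plus strand), had 9.3, 30.6 and 19.5 CPM in fear, 5.6, 6.3 and 11.1 CPM in context and 5.4, 3.4 and 3.8 CPM in home cage. Mybpc1 kept its 3 groups apart, while fear overlapped context for Kcng4 and Cpne9. Fear against home cage gave 1.88 ± 0.30 for Kcng4, 2.16 ± 0.21 for Mybpc1 and 2.30 ± 0.38 for Cpne9. Across the 7 alternatives that left out no library, Kcng4 ran from 1.52 to 1.90, Mybpc1 from 1.36 to 2.22 and Cpne9 from 0.76 to 2.73. The lowest Mybpc1 and Cpne9 values came with oligodendrocyte markers as a covariate.

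**Figure D1:**
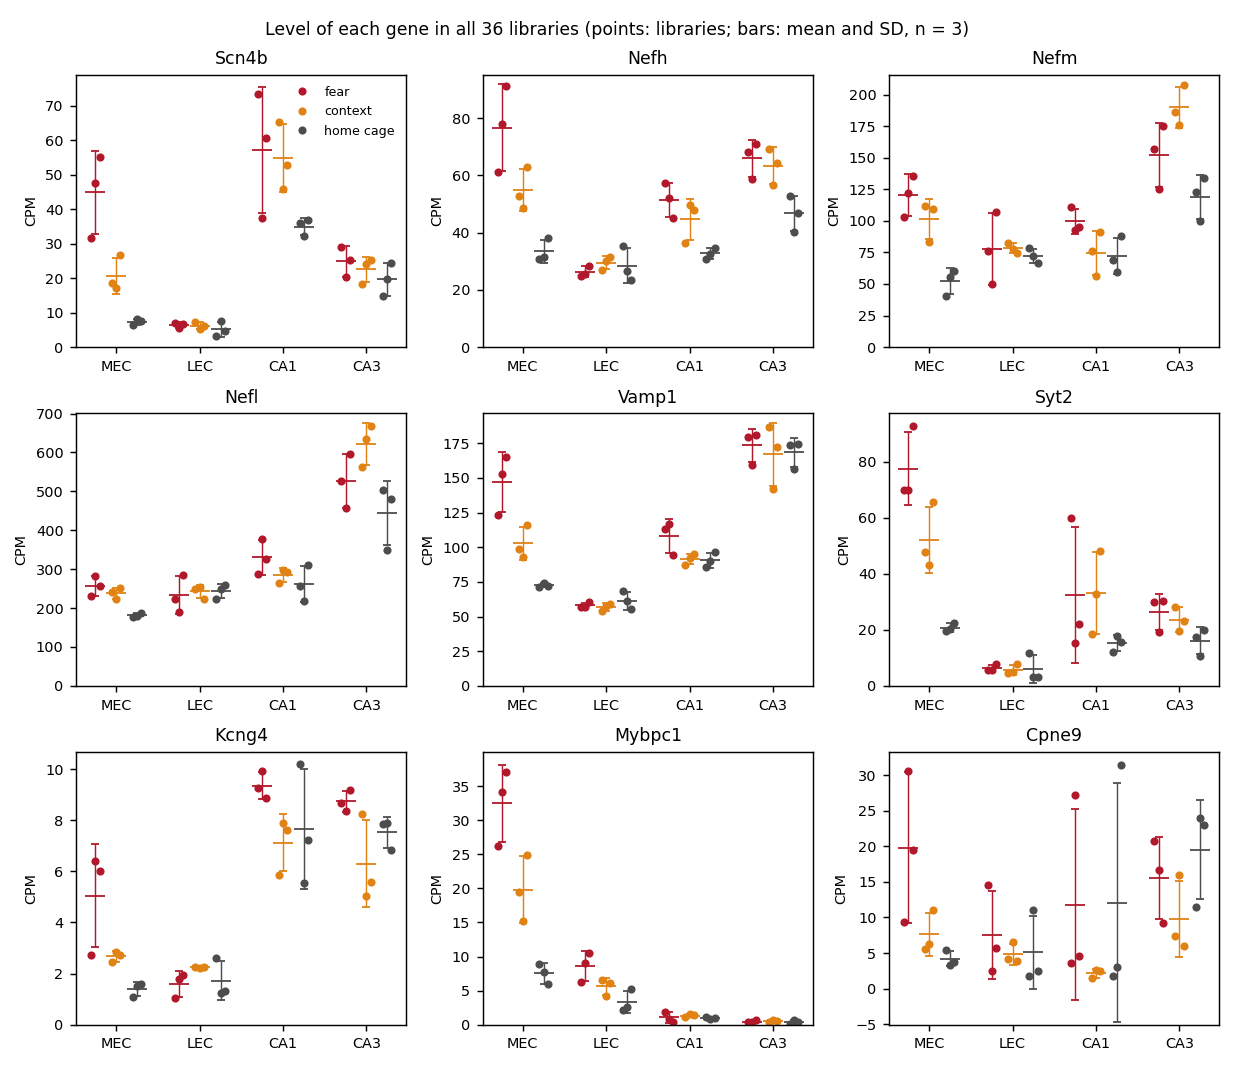
CPM of each gene (y axis) in every library of the 4 regions (x axis), with fear, context and home cage from left to right; points are libraries and bars the mean and SD of 3. In MEC every fear and context library lies above every home cage library for all 9 genes, and in LEC most groups overlap.

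Across the 9 genes, every fear library lay above every home cage library for 9 (12% of all genes tested in MEC), and every context library did so for 9 (7.91%). Every fear library lay above every context library for 4 (11.9%), namely Scn4b, Vamp1, Syt2 and Mybpc1. The same 4 kept the full order of 3 separated groups (0.913% of all genes). The order of the means was what chose the genes, and 19.1% of all genes tested had it, so these counts support nothing. The median log2 difference over the 9 genes was 1.88 for fear against home cage, 0.96 for context against home cage and 0.57 for fear against context, beside medians of all genes of -0.01, -0.02 and 0.00. With oligodendrocyte markers as a covariate, the median was 1.36 for fear against home cage and 0.70 for context against home cage. Across the 7 alternatives that left out no library, fear against home cage ran from 2.18 to 2.68 for Scn4b, 0.98 to 1.36 for Nefm and 1.69 to 1.96 for Syt2. The lowest Scn4b value came with that covariate, and the lowest Nefm and Syt2 values with interneuron markers as a covariate.

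In MEC the 9 genes also varied together between libraries of one group. MEC fear 1 was the lowest fear library for all 9 genes, MEC fear 3 was the highest for 6 and MEC fear 2 for 3. MEC context 3 was the highest context library for 7. Over deviations from the group means in the 9 MEC libraries, all 36 gene pairs had a positive Pearson r, with a median of 0.68. In the 27 libraries of the other regions, 25 of 36 pairs were positive, with a median r of 0.13. The same count was not made over all genes, and the first principal component held 55.8% of the variance between MEC libraries. These genes share library and dissection, and the values are a description. In MEC, deviations of Scn4b followed those of Vamp1 (r = 0.96), Nefh (0.87) and Syt2 (0.80) and, among markers, Gad1 (0.58), Mbp (0.55), Pvalb (0.41), Mog (0.11) and Gad2 (-0.20). By this r among 12742 genes, the other members ranked from 2 (Vamp1) to 552 (Mybpc1), and Gad1 ranked 1146.

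Outside MEC few of the 9 genes passed a test. In LEC none was called for fear against home cage, context against home cage or fear against context with edgeR's quasi-likelihood test (adjusted p under 0.05), and 0% of all genes were called (56 genes for fear against home cage without LEC home cage 3). At an unadjusted p under 0.05 the counts were 1, 0 and 0 of 9 (7.57%, 2.46% and 1.26% of all genes). DESeq2 called 0 of the 9 in each. Scn4b had 7.1, 5.4 and 6.7 CPM in LEC fear, 7.3, 5.2 and 6.0 CPM in context and 3.3, 7.5 and 4.8 CPM in home cage, with overlapping groups. Mybpc1 was the gene with the unadjusted call, at 6.2, 9.1 and 10.6 CPM in LEC fear against 2.2, 2.6 and 5.2 CPM in home cage (log2 difference 1.34 ± 0.35, adjusted p = 0.53). Without LEC home cage 3 it was called, and it was the 1 gene of 9 whose fear libraries all lay above home cage there (6.85% of all genes). The remaining 8 genes ran from -0.14 to 0.57 for fear against home cage, each within 1 SE of 0.

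In CA1 none of the 9 genes was called in any comparison with edgeR (0% of all genes), although all 9 estimates for fear against home cage were above 0. Without CA1 home cage 1 edgeR called 1108 genes for fear against home cage and 350 for context against home cage, and without CA1 home cage 3 it called 527 and 4. At an unadjusted p under 0.05, 5 of 9 passed for fear against home cage (22.0% of all genes). For context against home cage 3 passed (21.3%), and for fear against context 2 passed (5.68%). DESeq2 called 4, 2 and 0 of the 9 genes. Scn4b had 73.5, 37.5 and 60.7 CPM in CA1 fear, 65.5, 46.0 and 52.9 CPM in context and 35.9, 32.2 and 36.8 CPM in home cage. Its log2 difference was 0.79 ± 0.22 for fear against home cage (adjusted p = 0.086) and 0.72 ± 0.22 for context against home cage (adjusted p = 0.12). Nefh had 57.2, 51.9 and 45.3 CPM in CA1 fear against 30.8, 32.7 and 34.7 CPM in home cage (0.73 ± 0.13, adjusted p = 0.062). Fear lay wholly above home cage for Scn4b, Nefh and Nefm, 3 of 9 (8.37% of all genes), and context did so for Scn4b, Nefh and Syt2, 3 of 9 (9.71%). Same-numbered CA1 fear and home cage libraries deviated together, but fear and context libraries did not (r = -0.06, -0.19 and -0.31). With the replicate block, fitted over all 9 CA1 libraries, 3 genes were called for fear against home cage, Scn4b (0.74), Nefh (0.73) and Nefm (0.56). The 11 general interneuron markers moved with these groups, summing to 1111, 937 and 1085 CPM in CA1 fear, 965, 1042 and 979 CPM in context and 718, 580 and 795 CPM in home cage, and their part in the result was not tested beyond a covariate fit, under which Scn4b stood at 0.45 and Nefh at 0.66 for fear against home cage.

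In CA3, Nefm and Nefh were called higher in context than in home cage, 2 of 9. Among all genes 13.9% were called there, 5.77% as higher. Nefm had 186.3, 176.2 and 207.7 CPM in CA3 context against 122.7, 99.6 and 134.3 CPM in home cage (0.80 ± 0.18, adjusted p = 0.045). Nefh had 69.4, 56.7 and 64.2 CPM in context against 52.9, 40.4 and 46.9 CPM in home cage (0.56 ± 0.15, adjusted p = 0.046). Nefl stood at 0.61 ± 0.19 (adjusted p = 0.051), and these 3 genes were the ones whose context libraries all lay above home cage (3 of 9, 10.5% of all genes). The adjusted p of both genes was above 0.05 without CA3 context 2, context 3, home cage 1, home cage 2 or any one fear library, where the log2 difference ran from 0.67 to 0.84 for Nefm and from 0.45 to 0.66 for Nefh, and with oligodendrocyte markers as a covariate (0.79 for Nefm and 0.56 for Nefh). The count of all genes called moved in the same way, from 0 without any one of these libraries to 5429 without context 1, against 2243 with all 9 libraries. Markers moved with these groups as well. The 6 general neuron markers summed to 8351, 8477 and 9126 CPM in CA3 context against 6474, 5354 and 7361 CPM in home cage. The 6 astrocyte markers summed to 1744, 1852 and 1631 CPM in context against 2495, 2628 and 1980 CPM in home cage, and 2 of them fell. The 6 microglia markers summed to 208, 184 and 180 CPM in context against 266, 310 and 212 CPM in home cage, and 2 of them fell. The part of these 3 lists in the neurofilament calls was not tested. For fear against home cage, 0 of 9 genes were called with edgeR (0.00619% of all genes, and 462 genes without CA3 home cage 3). At an unadjusted p under 0.05, 3 of the 9 passed (18.9% of all genes), and DESeq2 called 1. Fear lay wholly above home cage for Nefh and Kcng4, 2 of 9 (9.3%). For fear against context 0 were called (0%, and 3383 genes without CA3 context 1), 0 passed unadjusted (23.4% of all genes) and DESeq2 called 0. Scn4b in CA3 had 29.0, 20.3 and 25.3 CPM in fear against 14.9, 19.7 and 24.5 CPM in home cage (0.43 ± 0.22, adjusted p = 0.31).

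**Figure D2:**
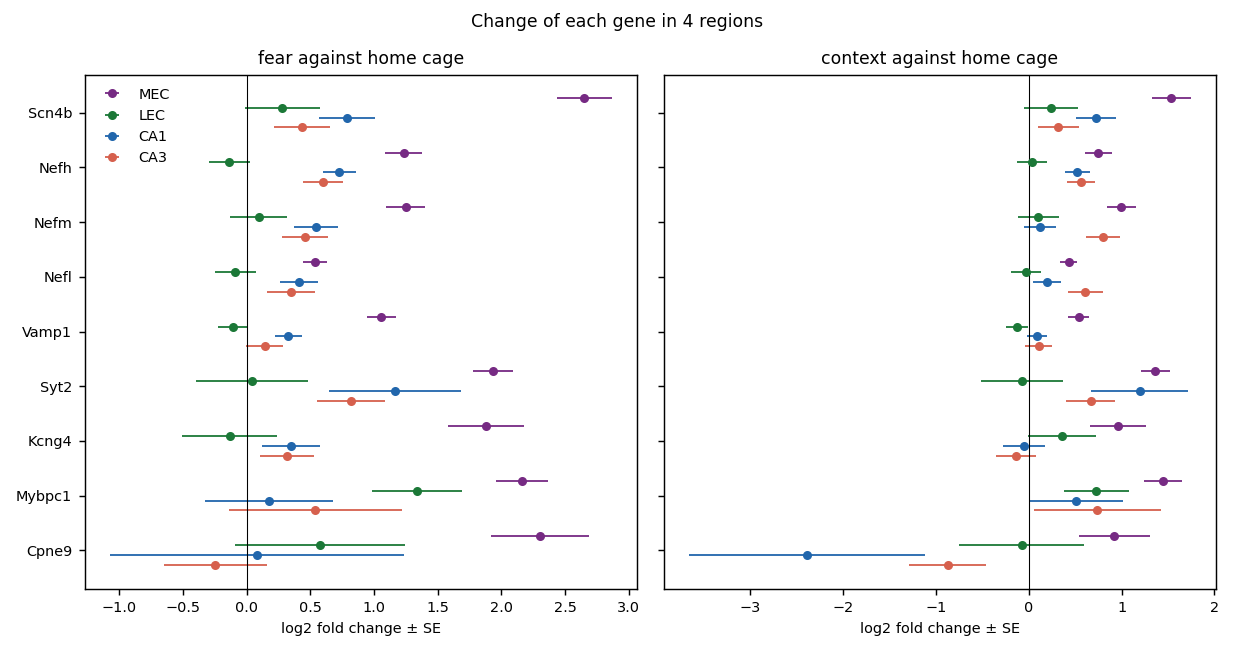
Log2 fold change (x axis, bars 1 SE) of each gene (y axis) for fear against home cage and context against home cage, coloured by region. For fear against home cage the MEC points run from 0.54 to 2.65, with Scn4b the highest, and the LEC points lie within 1 SE of 0 except for Mybpc1.

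Whether a response differed between regions was tested among LEC, CA1 and CA3. In the 6 contrasts of responses against home cage, edgeR called 0 of the 9 genes (0 or 0.00559% of all genes). At an unadjusted p under 0.05, from 0 to 4 of the 9 passed, beside 3.98% to 23.3% of all genes. The count of 4 was for fear, LEC minus CA1 (7.38%), and that of 0 for fear, CA3 minus CA1 (3.98%). For context, LEC minus CA3, 3 passed (23.3%). For fear against home cage, the response in MEC minus that in LEC was above 0 for all 9 genes. On the log2 scale it ran from 0.62 ± 0.23 (SE) for Nefl to 2.36 ± 0.38 for Scn4b (median 1.37), with Cpne9 at 1.71 ± 1.18. MEC minus CA1 ran from 0.15 ± 0.23 for Nefl to 2.25 ± 1.16 for Cpne9 (median 0.78). MEC minus CA3 ran from 0.17 ± 0.23 for Nefl to 2.53 ± 1.16 for Cpne9 (median 1.10). These values rest on the MEC libraries that chose the genes.

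Levels also differed between regions. Scn4b was highest in CA1, where the 3 group means were 57.3 ± 18.2 CPM in fear, 54.8 ± 9.89 CPM in context and 35.0 ± 2.44 CPM in home cage (SD, n = 3). MEC fear, at a mean of 44.9 CPM (31.8 to 55.2), had a lower mean than CA1 fear and context and overlapped all 3 CA1 groups. The CA3 groups and MEC context followed, each overlapping its neighbour, and MEC home cage and the 3 LEC groups formed the overlapping low end, from 7.34 to 5.18 CPM. LEC was lower than CA1 by edgeR's test for 6 of 9 genes (22.9% of all genes) and higher for 1 (23.7%), with Scn4b at -3.02 ± 0.16 and Kcng4 at -2.12 ± 0.17. LEC was lower than CA3 for 8 (19.7%) and higher for 1 (20.2%), with Vamp1 at -1.59 ± 0.07. Mybpc1 was the gene higher in LEC, by 2.28 ± 0.23 over CA1 and 3.52 ± 0.26 over CA3. Its mean was 5.86 CPM in LEC, 1.14 CPM in CA1 and only 0.46 CPM in CA3 (0.07 to 0.68). Under the alternatives the difference over CA3 ran from 3.40 to 5.20. CA3 exceeded CA1 for 4 genes, the neurofilament genes and Vamp1 (16.4% of all genes), and was lower for 2, Scn4b at -1.04 ± 0.15 and Mybpc1 at -1.24 ± 0.27 (14.6%). Cpne9 was uneven, with CA1 fear 2 at 27.3 CPM and CA1 home cage 3 at 31.4 CPM while the other 7 CA1 libraries ran from 1.43 to 4.56 CPM.

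The genes most like Scn4b were found by Pearson r of log2 CPM among 12742 genes, as a description. Over all 36 libraries they were Sema7a (0.92), Kalrn, Plekhg1, Sertad4, E130308A19Rik, Fndc5, Ptpn11 and Cd34. Over the 27 libraries outside MEC they were Iqgap2 (0.96), Atp2b1, Tfdp2, Epha7, Ppp3ca, Wipf3, Arpc2 and Kbtbd11. For deviations from the 12 group means they were Cacng3 (0.71), Inka2, Tspan5, Itpr2, Ets1, Rbpj, Ube2r2 and Noct. Of the other members, Kcng4 came nearest over all libraries (0.81), and Mybpc1 ran opposite (-0.26). Among markers, Pvalb (0.77), Mog (0.72) and Mbp (0.71) stood above Gad1 (0.09) and Gad2 (-0.22). These values include level differences between the 12 groups. For deviations from the group means, Kcng4 stood at -0.10 and Mybpc1 at 0.39, with Nefm the nearest member (0.47). Gad2 (0.16) and Gad1 (0.13) then stood above Mog (-0.08), Mbp (-0.09) and Pvalb (-0.20).

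Relatives of the 9 genes were tested in MEC, where fear against home cage called 1559 of 16314 genes (9.56%), 926 of them higher (5.68%). Of the sodium channel genes beside Scn4b, 3 of 7 rose and none fell. Scn8a, the main channel of the axon initial segment, had 555, 474 and 532 CPM in fear against 303, 384 and 366 CPM in home cage (0.61 ± 0.10, adjusted p = 0.0037). Scn1a, the channel of fast-spiking interneurons, rose too (0.44 ± 0.11). Scn2b (0.27), Scn2a (0.06), Scn3b (-0.18) and Scn3a (-0.39) did not pass.

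Of the Kv2, silent Kv and Kv3 genes, 4 of 14 rose and none fell. Kcnc1, a Kv3 channel gene, had 203, 187 and 216 CPM in fear against 119, 134 and 142 CPM in home cage (0.66 ± 0.09, adjusted p = 0.0014). Kcns2, a silent subunit gene, rose (0.48 ± 0.12), whereas Kcnc4 (0.41) and Kcnc2 (-0.29) did not pass. Of the Kv1 genes 4 of 8 rose, Kcna2 (0.93 ± 0.10), Kcna1 (0.86 ± 0.10), Kcnab3 (0.68 ± 0.15) and Kcnab2 (0.57 ± 0.16). Of the perineuronal net genes, which build the matrix around fast-spiking neurons, 3 of 9 rose and 1 fell. Acan, its core proteoglycan, had 5.13, 6.23 and 6.85 CPM in fear against 2.11, 2.76 and 2.48 CPM in home cage (1.35 ± 0.20, adjusted p = 0.0018). Hapln4 (1.02 ± 0.12) and Tnr (0.72 ± 0.13) rose, and Has2, a hyaluronan synthase at under 1 CPM, fell (-2.76 ± 0.59).

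**Figure D3:**
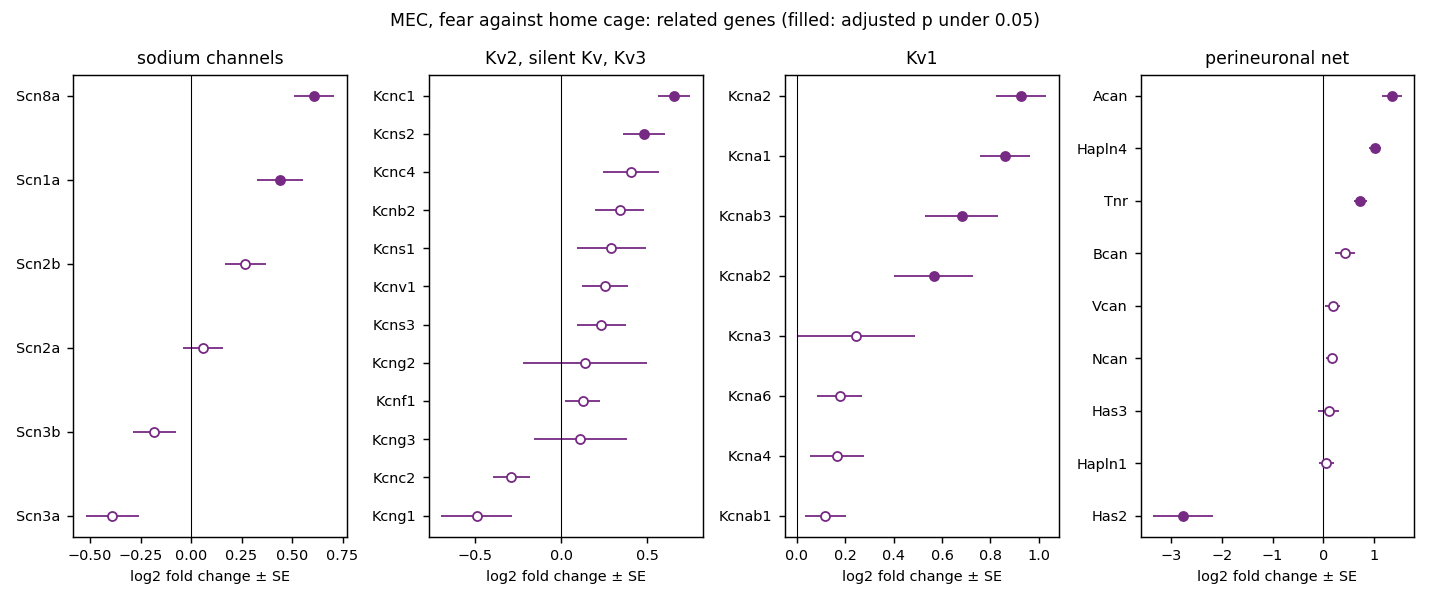
Log2 fold change of fear against home cage in MEC (x axis, bars 1 SE) for genes of 4 families (y axis); filled points have an adjusted p under 0.05. Kcna2, Acan and Hapln4 lie near or above 1, and Has2 lies at -2.76.

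Of the release genes beside Vamp1 and Syt2, 6 of 17 rose and 1 fell. With 1 MEC library left out, 1 to 9 rose and 0 to 2 fell. Syt12 (0.93 ± 0.15), Cplx1 (0.64 ± 0.12), Unc13a (0.42 ± 0.10) and Syt1 (0.38 ± 0.10) rose, and Syt10 fell (-0.95 ± 0.27). Of the intermediate filament genes, Ina (0.55 ± 0.09) and Prph (0.74 ± 0.22) rose, and Nes (0.57) and Vim (0.14) did not pass. Of the copines, Cpne4 rose (0.45 ± 0.11) and Cpne7 fell (-0.76 ± 0.17), 2 of 8. Of the myosin-binding genes beside Mybpc1 only Mybpc2 passed the filter on low counts (-0.13). Of the rapid activity-regulated genes 8 of 13 rose, led by Egr1 (1.39 ± 0.12), Fosb (1.75 ± 0.20), Fos (1.15 ± 0.16) and Egr3 (1.60 ± 0.23).

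For context against home cage 93 genes were called in MEC (0.57%), and 12 (without context 1) to 356 (without home cage 3) with 1 library left out. Among the relatives these were Kcna2 (0.79), Kcna1 (0.69), Acan (0.98), Hapln4 (0.62), Tnr (0.62), Ina (0.42), Egr1, Fosb, Fos and Egr2. With the replicate number as a block, edgeR called 667 genes. Among them were 4 of the 14 Kv2, silent Kv and Kv3 genes and 3 of the 7 sodium channel genes. Same-numbered context and home cage libraries deviated together in MEC, whereas fear and home cage libraries did not do so in every pair (r = 0.11, -0.23 and 0.27). For fear against context edgeR called 0 of 16314 genes, with 14.7% at an unadjusted p under 0.05, and DESeq2 called 48.

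These MEC calls depended on the libraries and covariates used. Leaving out 1 MEC library gave 306 calls (without fear 3) to 4486 calls (without home cage 3) for fear against home cage, with 1 to 4 sodium channel genes, 3 to 5 Kv2, silent Kv and Kv3 genes, 2 to 4 Kv1 genes and 3 to 5 perineuronal net genes higher. The fit of all 36 libraries called 239 genes, with 0, 2, 1 and 2 genes higher in those 4 families. With oligodendrocyte markers as a covariate 97 genes were called, with 1 gene higher in each of those 4 families, and with interneuron markers 110 genes, with 0, 1, 2 and 1 higher.

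White matter and interneuron markers were measured beside the 9 genes. The 12 oligodendrocyte markers summed to 2600, 3596 and 3372 CPM in MEC fear, 2653, 2543 and 2948 CPM in context and 2542, 1818 and 1754 CPM in home cage. Of these 12, 7 rose in fear (median log2 difference 0.68), with Mbp at 0.75 ± 0.17 and Mog at 0.75 ± 0.19 among them. With 1 MEC library left out, the number that rose in fear ran from 1 to 11. In context 0 of 12 were called with edgeR (0 to 6 higher with 1 MEC library left out) and 4 with DESeq2, although 12 lay above 0. In LEC this sum was 1262, 1446 and 1344 CPM in fear and 1873, 1482 and 1244 CPM in home cage. The 11 general interneuron markers summed to 1415, 1315 and 1443 CPM in MEC fear, 1397, 1257 and 1372 CPM in context and 1076, 1219 and 1257 CPM in home cage. Gad1, an enzyme of GABA synthesis, was the 1 of 11 that rose in fear (0.50 ± 0.09), and Gad2 stood at 0.15 ± 0.10. The 7 parvalbumin interneuron markers overlapped, at 588, 502 and 556 CPM in fear and 506, 543 and 506 CPM in home cage. Pvalb rose in fear (0.98 ± 0.24), with 27.7, 42.7 and 43.0 CPM against 27.3, 14.0 and 17.8 CPM in home cage, Kcnc1 rose and Tac1 fell (-1.02 ± 0.16). The layer 4 markers Scnn1a (1.16 ± 0.20) and Whrn (1.02 ± 0.20) rose, 2 of 4, and layer 5 and layer 6 markers had medians of -0.32 and -0.34. Other lists were higher in fear as well. The 6 general neuron markers summed to 7116, 7246 and 7587 CPM in MEC fear, 7415, 6451 and 6976 CPM in context and 5863, 6210 and 6296 CPM in home cage, and 2 of 6 rose in fear. The 5 thalamus markers summed to 212, 212 and 220 CPM in fear, 223, 201 and 192 CPM in context and 166, 163 and 162 CPM in home cage, and 2 of 5 rose in fear. The 6 endothelial markers summed to 88.5, 77.1 and 107 CPM in fear, 63.9, 77.6 and 61.0 CPM in context and 58.8, 62.8 and 63.6 CPM in home cage, and 3 of 6 rose in fear. All 3 sums were above home cage in every fear library. The part of these markers in the differences of the 9 genes was not tested beyond the oligodendrocyte and interneuron covariate fits.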

How the data were processed

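The 36 libraries were made from TRIzol-extracted RNA with the Illumina TruSeq Stranded mRNA kit, per the labels' protocols. The authors deposited raw read counts, whole numbers, for each gene. Trimmomatic 0.33, STAR 2.7.10b, HTSeq 2.0.1 and mm10 are named, per the submitters' processing notes, and the settings, annotation release and strand setting were not stated there. Identifiers were matched to GENCODE M21 (GRCm38), which gave 35449 of 37315 genes (95.0%) a symbol. CPM are counts scaled to the library total, with no TMM factor. The log2 CPM behind the Pearson r values did carry TMM factors, with a prior count of 2. Genes entered the likeness to Scn4b at a mean of at least 1 log2 CPM.

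Each region's 9 libraries were filtered (filterByExpr), normalized (TMM) and fitted with the quasi-likelihood model of edgeR 4.0.16 with robust estimation, which left 6 residual degrees of freedom. Region contrasts and interactions came from all 36 libraries (17875 genes). A call needed an adjusted p under 0.05 (Benjamini-Hochberg over all genes tested). SE is the log2 change divided by the root of F. The procedure was tested on simulated data. Alternatives were RLE scaling, no filter, the replicate block, DESeq2 1.42.0, marker covariates, a 36-library fit and leaving out each library. Region contrasts instead left out each replicate number of a condition in every region at once. A fit of CA1 and one of CA3 lacking context 2 and home cage 2 was chosen after seeing the data.

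Members, gene lists and the rule for named genes were chosen with earlier results of these data known. Named were all members, family genes called in MEC (up to 4 per direction), the sodium channel, neurofilament and Kv3 genes, defining markers and the 8 genes most like Scn4b by each measure; Tac1, Scnn1a and Whrn were named after their values were seen. A few genes that the rule selects are not reported here. The labels do not say that replicate numbers mark mice. Deviations of same-numbered libraries over 10149 genes correlated above 0.1 in every pair within a region for MEC context and home cage (0.60, 0.33 and 0.76) and CA1 fear and home cage (0.30, 0.40 and 0.23). No other comparison within a region did so, and LEC context and home cage had -0.52, 0.30 and -0.69.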

Additional observations from a re-analysis of the deposited data

How the results depend on the processing

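Of the differences of single genes, 46 were within 1 SE of 0, and 35 of those changed sign under some alternative; of the other 116, 108 kept their direction under every alternative run. Counts of members called changed as follows. In CA1, fear against home cage (0 called) gave 1 without a filter on low counts, 3 with the replicate block, 4 with DESeq2 and 1 in the 36-library fit, and context against home cage gave 2 with DESeq2 and 1 in the 36-library fit. In CA3, fear against home cage gave 1 with DESeq2 and 1 in the 36-library fit, and context against home cage (2 called) gave 4 with the replicate block, 0 with the oligodendrocyte covariate (Nefm 0.79, Nefh 0.56) and 0 without context 2 and home cage 2 (Nefm 0.71, Nefh 0.52). LEC against CA1 (7 called) gave 3 with the oligodendrocyte covariate. The MEC median was 1.36 for fear and 0.70 for context against home cage with that covariate. With 1 library left out, counts ran from 0 to 1 in LEC and in CA1 for fear against home cage, from 0 to 3 in CA3 for context against home cage and from 0 to 1 in CA3 for fear against context. For contrasts between regions, 1 replicate number of a condition was left out in every region at once. So computed, the home cage median of MEC against LEC, 0.17 with all libraries, ran from -0.047 (without home cage 3) to 0.24. Sign changes beyond 1 SE were Cpne9 in MEC for context (-0.17, oligodendrocyte covariate); Kcng4 (-0.073, fear), Mybpc1 (-0.21, context) and Cpne9 (1.70, context) in CA1, and in home cage MEC against CA1 Syt2 (-0.78) and Cpne9 (1.12), all with the interneuron covariate; and, in home cage with 1 replicate left out, Nefh for MEC against LEC (-0.047 to 0.39), Kcng4 for MEC against LEC (-0.62 to 0.19) and Cpne9 for MEC against CA1 (-2.29 to 0.91). Over all MEC genes, fear against home cage (1559 called) gave 3783 with the block, 2417 with DESeq2 and 239 in the 36-library fit; context against home cage (93) gave 427 with no filter, 667 with the block, 559 with DESeq2, 8 with the interneuron covariate and 1 in the 36-library fit. The cause was not tested.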
